A study of Mus musculus with 24 samples.

Results

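A set of 10 genes tied to bone morphogenetic protein (BMP) signalling, most of them switched on by it and several acting to limit it, was followed in liver and bone marrow after blood loss: Id1, Id2, Id3, Id4, Smad6, Smad7, Smad9, Atoh8, Bambi and Bmper. They were chosen by name in the scanner files, where 12 probes carried these 10 names among 56605 probes and 37008 gene names on the array. Id2 and Smad7 had 2 probes each and the other members had 1. All 10 genes were measured in liver. In marrow the Smad9 probe was above background on 0 of 12 arrays, so 9 members were tested there.

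All samples came from male mice of genotype Erfe-/-, a knockout of erythroferrone that the controls carry too, so no group has the intact gene. Blood was taken from the retro-orbital sinus, and liver and marrow RNA was hybridised to 24 one-colour arrays. The 0 h group of each tissue is labelled control, and the 24 h and 48 h groups are labelled phlebotomy, with 4 arrays in each of the 6 groups. The volume of blood and the age of the mice are not given in the sources used here, and the labels do not say which liver and which marrow came from the same mouse. Erfe itself was above background for 0 of 12 liver arrays on both of its probes, and on 1 of 12 marrow arrays for 1 of them.

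BMP ligands bind paired receptors on the cell surface, the receptors phosphorylate SMAD1, SMAD5 and SMAD8 (encoded by Smad9), and these join SMAD4 to act on genes in the nucleus. In hepatocytes this route sets the output of Hamp, the iron hormone hepcidin. The Id genes, Smad6, Smad7 and Atoh8 are widely used as readouts of the same signal in liver, because they respond to it directly and with little delay. Erythroferrone is known to bind BMP ligands, which is one route by which blood loss lowers hepcidin, and that route is missing in these mice.

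The level of a probe is given throughout as log2 of its processed intensity minus log2 of the array's 75th percentile. That percentile lay between 361.2 and 473.1 intensity units in liver and between 715.0 and 954.7 in marrow. A change is the later time minus 0 h on this log2 scale. Changes were tested with limma across all genes of a tissue, 19649 in liver and 21399 in marrow, with p-values adjusted by the Benjamini-Hochberg method and a threshold of 0.05. With 4 arrays against 4, an exact permutation test of a single gene cannot give a two-sided p below 0.0286. The study names 4 mice per time, so p-values measure the spread between these mice.

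Libraries that stood apart bear on the marrow results. The marrow array 24 h replicate 2 carried hepatocyte transcripts: 8 hepatocyte markers summed to 19.1% of the mean liver level there, against 0.00397% to 0.0384% on the other marrow arrays. Marrow 48 h replicate 2 had the lowest summed level of 6 marrow stromal markers (Cxcl12, Lepr, Bglap, Col1a1, Adipoq and Kitl), 168.1 times the array's 75th percentile. The sum adds unlogged levels, so the brightest markers weigh most. At 0 h, mean log2 levels were 7.91 (Col1a1), 6.26 (Cxcl12), 6.15 (Bglap), 2.66 (Adipoq), 1.17 (Lepr) and -0.39 (Kitl). The range of that sum was 370.1 to 441.3 at 0 h, 224.9 to 393.3 at 24 h and 168.1 to 383.4 at 48 h, and all 6 markers were above background on every array of each marrow group. None of the 6 passed the test at 24 h or 48 h, although 6 of 6 had negative changes at 24 h (median -0.32) and 5 of 6 at 48 h (median -0.50). Markers of B cells were negative for 6 of 6 at both times (medians -0.68 and -0.43). Those of T and NK cells were negative for 5 of 5 (-0.25 and -0.28). Of the Kupffer cell list, 3 of 4 tested were negative (-0.42 and -0.45), with Clec4f above background on no marrow array at 0 h or 48 h. Neutrophil markers were negative for 6 of 6 and 5 of 6, and monocyte and macrophage markers for 3 of 4. Erythroid markers were positive for 3 of 6 at 24 h and 6 of 6 at 48 h, and megakaryocyte markers for 1 of 4 and 4 of 4. None of these markers passed. Of all marrow genes, 55.4% and 49.7% were negative. The summed level of the B cell markers ran from 61.4 to 103 at 0 h, 43.6 to 68.2 at 24 h and 43.6 to 86.4 at 48 h. Of the marrow arrays, 48 h replicate 2 had the highest summed erythroid (1036.2) and megakaryocyte (318.4) levels. The part of these cell types in the members' changes was not tested. In liver, all 8 hepatocyte and all 8 endothelial markers were above background on every array. The 8 endothelial markers were above background on every marrow array too, with sums of 6.49 to 9.28 against 47.9 to 63.6 in liver. In whole tissue, fewer cells of a type and less RNA per cell cannot be told apart.

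The sequences below show what was measured, with the first 30 of 60 bases of 4 probes that the results turn on. The Id2 pair is included because its probes disagreed in liver.

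Id2, probe A_52_P240542: tgagtgaaccttgtggactctttaattaga
Id2, probe A_52_P94071: gtaatgtgcttgtgtgtctgttaaatgttt
Id3, probe A_51_P380178: tccgcatctcccgatccagacagctgagct
Bmper, probe A_51_P488196: gctaggggccatctacgttttgtcactatc

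Positions in the scanner files are those of mouse assembly mm9. The Id2 probes lie on chromosome 12, minus strand, at chr12:25778904-25778963 and chr12:25780080-25780139. The Id3 probe is given as chr4:135700075-135700249 on the plus strand, a span longer than the probe itself. The Bmper probe lies at chr9:23289301-23289360 on the plus strand. Other positions are chr2:152563083-152563142 for Id1, chr13:48359180-48359239 for Id4, chr9:63801378-63801437 for Smad6, chr3:54605068-54605127 for Smad9 and chr6:72156816-72156875 for Atoh8. Both Smad7 probes and the Bambi probe lie on chromosome 18. Whether a probe lies in coding sequence or in an untranslated region was not analysed here.

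Promoters were read from RefSeq (assembly GRCm38.p6) for 7 of the 10 members. The members of the Id family among them are printed below, 250 bases before the gene's start, 5′ to 3′ on the gene's strand, because Id genes are the classic direct targets of the pathway. Capitals mark GGCGCC, a GC-rich element known to be bound by SMAD1 and SMAD5, which reads the same on both strands.

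Id2, chr12:25096093-25096342, minus strand: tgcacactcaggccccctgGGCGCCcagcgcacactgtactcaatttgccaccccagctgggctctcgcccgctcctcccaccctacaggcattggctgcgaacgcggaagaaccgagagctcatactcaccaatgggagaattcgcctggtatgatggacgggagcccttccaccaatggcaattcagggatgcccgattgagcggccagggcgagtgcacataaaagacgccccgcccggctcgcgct
Id3, chr4:136143572-136143821, plus strand: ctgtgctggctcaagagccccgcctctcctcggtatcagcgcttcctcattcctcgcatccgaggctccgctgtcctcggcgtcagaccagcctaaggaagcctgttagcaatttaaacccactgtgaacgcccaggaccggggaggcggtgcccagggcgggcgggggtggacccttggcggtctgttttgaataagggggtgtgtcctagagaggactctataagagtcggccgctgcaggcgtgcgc
Id4, chr13:48260866-48261115, plus strand: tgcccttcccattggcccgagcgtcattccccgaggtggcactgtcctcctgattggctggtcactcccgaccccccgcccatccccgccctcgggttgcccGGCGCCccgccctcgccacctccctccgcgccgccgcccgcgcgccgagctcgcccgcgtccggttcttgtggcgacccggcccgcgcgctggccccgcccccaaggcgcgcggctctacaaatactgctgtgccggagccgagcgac

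GGCGCC was present in 3 of the 7 windows: it began 231 bases before the start in Id2, 148 in Id4 and 51 in Smad9. Of all 32851 promoter windows of this length, 9.59% hold it. CAGAC, searched on both strands as the core of the SMAD binding element, was present in 1 of 7, the Id3 window, which holds 2 copies, against 42.2% of all windows. GTCTAGAC, the palindromic form, was in 0 of 7 and in 0.167% of all windows. The E-box CANNTG was in 3 of 7 (Id2, Smad9 and Atoh8) and in 66.2% of all windows. A match is a string in this window and says nothing about binding.

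**Figure D1:**
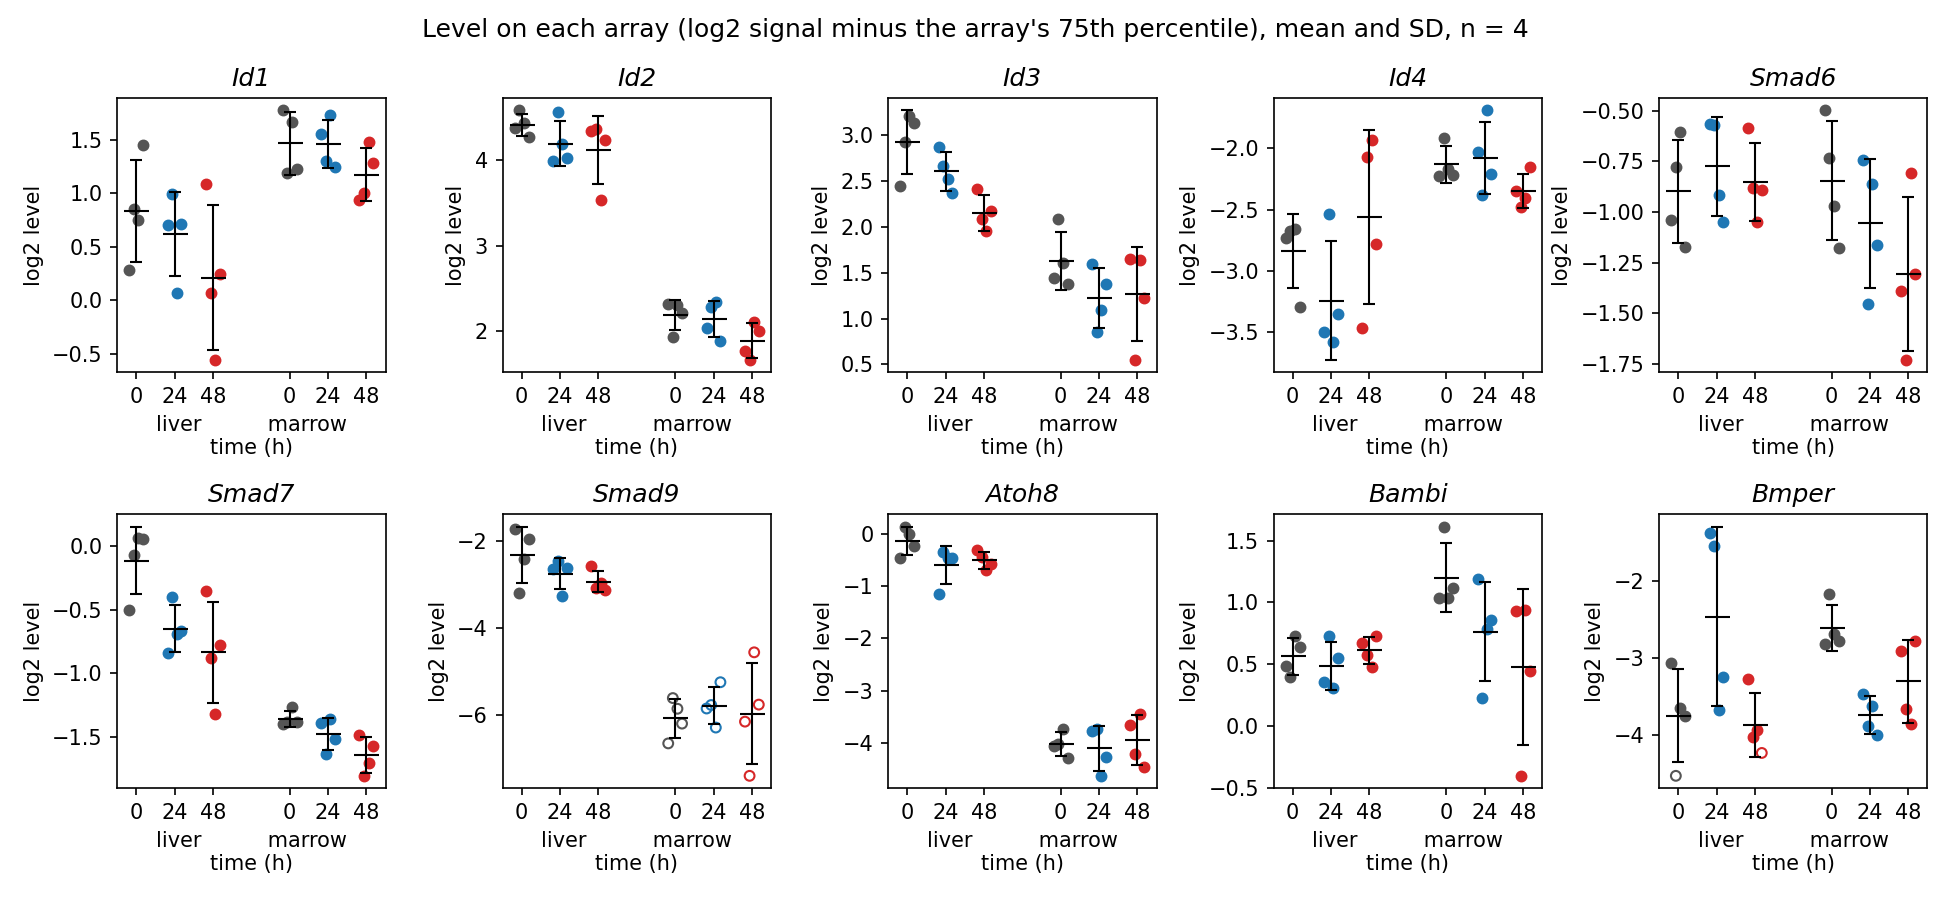
Level of each gene on each array (vertical axis, log2 signal minus the array's 75th percentile) at 0, 24 and 48 h in liver and marrow, with mean and SD over 4 arrays; open circles are not well above background. Liver Id3 at 48 h and marrow Bmper at 24 h lie wholly below their 0 h groups, and Smad9 is open on all marrow arrays.

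In liver, none of the 10 members passed the threshold at 24 h or at 48 h, and neither did any other gene: limma called 0 of 19649 genes at each time, which is 0% of those tested. At an unadjusted p under 0.05, 3 members stood out at 24 h (Smad7, Atoh8 and Bmper) and 2 at 48 h (Id3 and Smad7). The same cut took 10.9% of all liver genes at 24 h and 6.44% at 48 h. Most members had negative changes, 8 of 10 at 24 h with a median of -0.27 and 7 of 10 at 48 h with a median of -0.33. Over all liver genes the median was -0.02 at both times, and 55.4% and 55.9% were negative.

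The Id proteins lack a DNA-binding region and hold helix-loop-helix partners away from their sites. Liver Id3 had the smallest p of the members at 48 h. Its levels were 2.44, 2.92, 3.21 and 3.14 on the 4 arrays at 0 h, 2.88, 2.66, 2.53 and 2.37 at 24 h, and 2.42, 2.09, 1.95 and 2.17 at 48 h. Every array at 48 h lay below every array at 0 h, though the highest at 48 h (2.42) nearly met the lowest at 0 h (2.44), and the 24 h arrays overlapped both. The change at 48 h was -0.77 (SE 0.17, 95% interval -1.15 to -0.39), for which the exact permutation p was 0.0286 and the limma adjusted p 0.474. Groups lay apart in this way, in the lower direction, for 2.44% of all liver genes. Within slides, the change in Id3 at 48 h was -0.27, -1.19 and -0.97 on slides 1, 2 and 3, and at 24 h it was 0.19, -0.55 and -0.69.

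Liver Id1 levels were 0.28, 0.85, 0.75 and 1.45 at 0 h, 0.70, 0.99, 0.07 and 0.71 at 24 h, and 1.09, 0.06, -0.56 and 0.24 at 48 h. Arrays of all times overlapped, and 1 array at 48 h (1.09) lay above 3 of those at 0 h. The changes were -0.22 (SE 0.34) at 24 h and -0.62 (SE 0.34) at 48 h (limma adjusted p 0.843 and 0.821). Leaving out 1 array gave -0.40 to -0.011 at 24 h (lowest without 0 h replicate 1, highest without 0 h replicate 4) and -0.92 to -0.37 at 48 h (lowest without 48 h replicate 1, highest without 48 h replicate 3).

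Liver Id2 on its brighter probe ran from 4.27 to 4.58 at 0 h, 3.98 to 4.57 at 24 h and 3.53 to 4.36 at 48 h. The changes were -0.22 at 24 h and -0.29 at 48 h (SE 0.19 for both, limma adjusted p 0.680 and 0.868). They were -0.35 at 24 h without 24 h replicate 2 and -0.099 at 48 h without 48 h replicate 3. The other Id2 probe, A_52_P94071, went the opposite way in liver, with changes of 0.35 at 24 h and 0.28 at 48 h, and spread widely at 0 h, from -1.35 to 0.36. Its SE of 0.39 covers both directions. In marrow both Id2 probes had negative changes at both times.

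Liver Id4 was dim and scattered, from -3.29 to -2.65 at 0 h, -3.58 to -2.53 at 24 h and -3.47 to -1.93 at 48 h. Its change was -0.41 at 24 h and 0.28 at 48 h, both with an SE of 0.34 and neither past the threshold (limma adjusted p 0.677 and 0.960). The change at 24 h was -0.64 without 24 h replicate 2, and that at 48 h ran from 0.067 without 48 h replicate 3 to 0.58 without 48 h replicate 1.

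SMAD6 and SMAD7 are the inhibitory SMADs, which block the receptors and recruit ubiquitin ligases to them. Liver Smad7 levels on probe A_51_P403636 were -0.50, -0.07, 0.06 and 0.06 at 0 h, -0.84, -0.40, -0.69 and -0.67 at 24 h, and -0.35, -0.88, -1.32 and -0.78 at 48 h. At each later time 3 of 4 arrays lay below all of those at 0 h. The changes were -0.54 (95% interval -0.96 to -0.11) at 24 h and -0.72 (-1.14 to -0.30) at 48 h, the limma adjusted p being 0.391 and 0.522 and the exact permutation p 0.0571 for both. The dimmer Smad7 probe, A_55_P2741400, gave -0.34 at 24 h and 0.04 at 48 h, where 1 array at -1.75 stood above 3 others between -4.16 and -3.45. Within slides the 48 h change on the brighter probe was -0.07, -1.16 and -0.84.

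Liver Smad6 did not follow the sign of its paralogue. It ran from -1.17 to -0.61 at 0 h, -1.05 to -0.56 at 24 h and -1.05 to -0.58 at 48 h, so the groups lay on top of each other. The changes were 0.12 (95% interval -0.22 to 0.46) and 0.05 (-0.29 to 0.39).

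Smad9 encodes SMAD8, a receptor-activated SMAD with weak activity of its own that BMP signalling raises. Its liver levels were -1.71, -3.19, -2.40 and -1.95 at 0 h, -2.64, -2.46, -3.25 and -2.61 at 24 h, and -2.56, -3.07, -2.96 and -3.11 at 48 h. The 0 h group spanned nearly the whole range, since its lowest array was as low as any later one but 1. The changes were -0.43 (SE 0.29) and -0.61 (SE 0.29) (limma adjusted p 0.608 and 0.784). The 24 h change was -0.72 without 0 h replicate 2, -0.23 without 0 h replicate 1 and -0.26 without 24 h replicate 3.

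Atoh8 encodes a basic helix-loop-helix factor that has been linked to hepcidin expression. In liver it read -0.46, 0.13, 0.00 and -0.23 at 0 h, -1.15, -0.36, -0.46 and -0.46 at 24 h, and -0.32, -0.44, -0.70 and -0.59 at 48 h. The lowest array at 0 h lay within both later groups, and the other 3 lay above all later arrays. The changes were -0.47 (95% interval -0.86 to -0.07) at 24 h and -0.37 (-0.77 to 0.02) at 48 h (limma adjusted p 0.408 and 0.794), and that at 24 h was -0.29 without 24 h replicate 1.

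Bambi is a receptor-like membrane protein without a kinase that dampens signalling, and in liver its changes had the smallest SE of the members, 0.11. Its levels lay between 0.40 and 0.73 at 0 h, 0.31 and 0.73 at 24 h, and 0.48 and 0.73 at 48 h. The intervals of its changes, -0.32 to 0.16 at 24 h and -0.19 to 0.29 at 48 h, span 0 and are the narrowest among the members in liver.

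Bmper is a secreted protein that binds BMP ligands outside the cell. Its liver probe was near background, with 3, 4 and 3 of 4 arrays above it at 0, 24 and 48 h. The levels were -3.06, -4.54, -3.65 and -3.75 at 0 h, -1.37, -1.54, -3.67 and -3.25 at 24 h, and -3.28, -4.03, -3.94 and -4.24 at 48 h. Replicates 1 and 2 at 24 h stood well above all other liver arrays, and the other 2 arrays of that group did not. The change at 24 h was 1.29 (95% interval 0.18 to 2.40, limma adjusted p 0.410), and it was 0.93 without replicate 1 and 0.99 without replicate 2. Ecscr, an endothelial cell surface protein, and Vegfc, a growth factor of lymphatic vessels, were the genes most like it over the 12 liver arrays (Pearson r of 0.981 and 0.960 with time left in). On those 2 arrays Ecscr read 0.28 and 0.22 against -0.57 to -0.19 on the other liver arrays, and Vegfc read 0.67 and 0.69 against -0.15 to 0.22. The sum of 8 endothelial markers lay between 47.9 and 63.6 on all liver arrays, from 48.7 to 63.6 at 0 h and 47.9 to 58.6 at 24 h, and its part in the Bmper values was not tested.

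**Figure D2:**
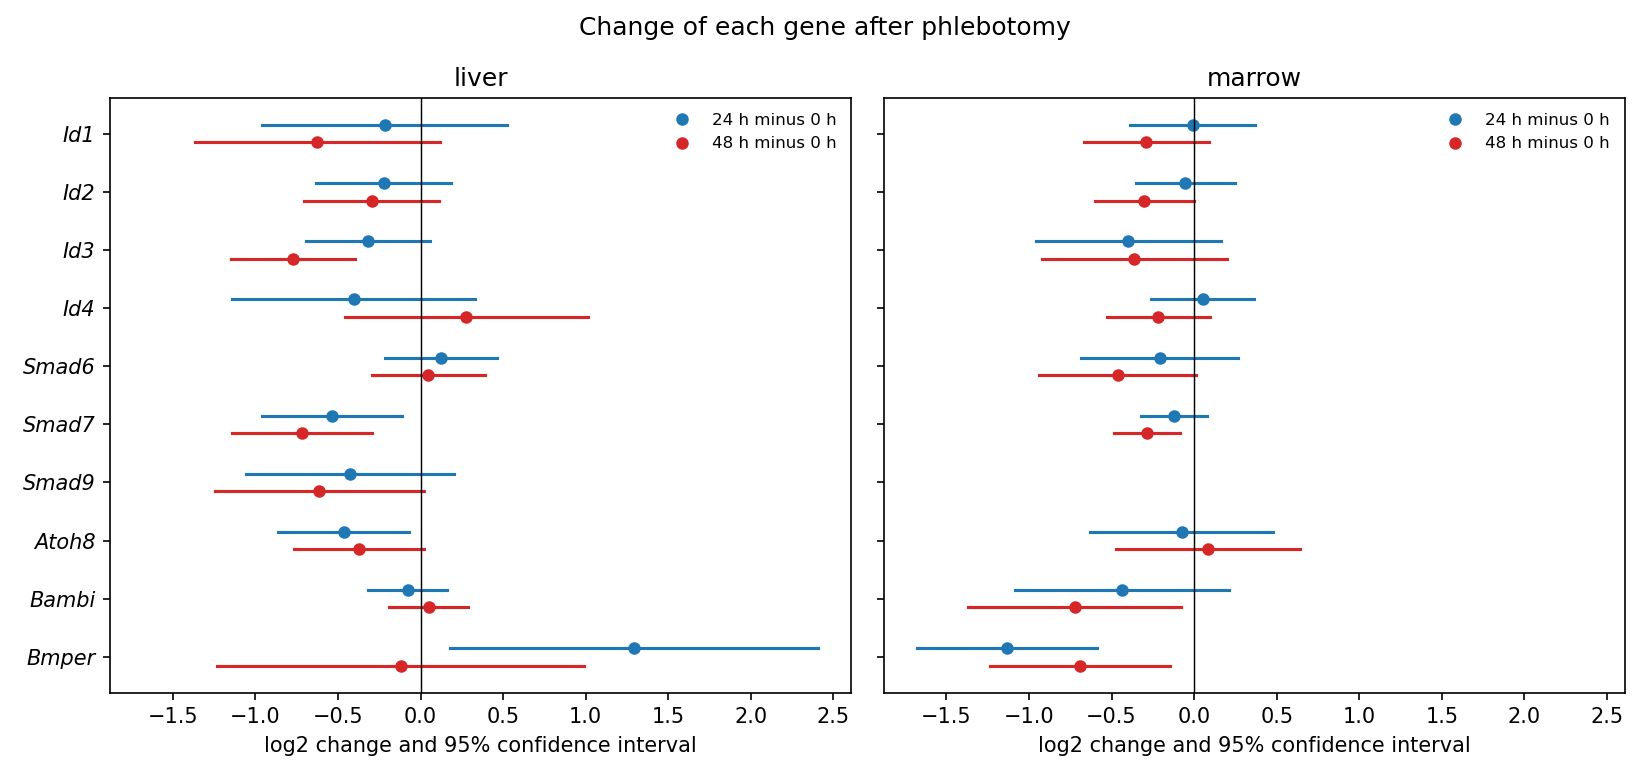
Change of each gene from 0 h (horizontal axis, log2, point and 95% confidence interval of the limma fit) at 24 h and 48 h in liver and marrow. Intervals wholly below 0 are those of liver Smad7 and Atoh8 at 24 h, liver Id3 and Smad7 at 48 h, marrow Bmper at 24 h and marrow Id2, Smad7, Bambi and Bmper at 48 h, and that of liver Bmper at 24 h lies above 0; none of the changes passed the adjusted threshold.

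In marrow, 0 of the 9 measured members passed the threshold at 24 h or 48 h, where limma called 217 of 21399 genes (1.01%) and 264 genes (1.23%). At an unadjusted p under 0.05 there was 1 member at 24 h (Bmper), against 12.6% of all marrow genes, and 4 at 48 h (Id2, Smad7, Bambi and Bmper), against 16%. The changes were negative for 8 of 9 members at both times, with medians of -0.12 and -0.30. The medians over all marrow genes were -0.02 and 0.00, with 55.4% and 49.7% of genes negative. All members but Atoh8 had negative changes at 48 h.

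Marrow Bmper came closest to the threshold. It read -2.82, -2.17, -2.68 and -2.78 at 0 h, -3.47, -3.89, -3.62 and -4.00 at 24 h, and -2.90, -3.67, -3.86 and -2.78 at 48 h. All arrays at 24 h lay below all at 0 h, as they did in the lower direction for 4.13% of marrow genes, while at 48 h the groups overlapped. The change at 24 h was -1.13, a level 2.19-fold lower (SE 0.25, 95% interval -1.68 to -0.59), the exact permutation p being 0.0286 and the limma adjusted p 0.0615. Within slides it was -0.97, -1.21 and -1.03. The adjusted p was under 0.05 in 6 of 27 alternatives and ran from 0.0216 to 0.182 over them. Without the array that carried hepatocyte transcripts, marrow 24 h replicate 2, the change was -1.08, with an adjusted p of 0.129. At 48 h the change was -0.69 (adjusted p 0.202).

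Marrow Bambi read 1.04, 1.61, 1.03 and 1.12 at 0 h, 1.19, 0.22, 0.79 and 0.86 at 24 h, and 0.93, -0.41, 0.94 and 0.45 at 48 h. The 48 h arrays all lay below the 0 h arrays, and replicate 2 of 48 h lay far below the rest. Groups apart in the lower direction were found for 4.69% of marrow genes at 48 h. The change at 48 h was -0.72 (SE 0.30, exact permutation p 0.0286, limma adjusted p 0.258), and -0.43 without that replicate. At 24 h it was -0.44, with an interval of -1.08 to 0.21, and -0.26 without marrow 24 h replicate 2. The array lowest in Bambi is also the one lowest in summed stromal markers (168.1) and highest in summed erythroid markers (1036.2). The part of stromal or erythroid cells in this change was not tested.

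Marrow Id3 read 1.44, 2.08, 1.60 and 1.38 at 0 h, 1.59, 0.85, 1.09 and 1.37 at 24 h, and 1.65, 0.55, 1.63 and 1.22 at 48 h. The groups overlapped at both times, and the lowest values were again replicate 2 of 24 h and replicate 2 of 48 h. The changes were -0.40 and -0.36 (SE 0.26 for both, limma adjusted p 0.558 and 0.520), and the change at 48 h was -0.12 without 48 h replicate 2. Without 0 h replicate 2 the changes were -0.25 and -0.21.

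Marrow Smad7 varied little within groups, reading -1.40, -1.38, -1.26 and -1.38 at 0 h, -1.39, -1.64, -1.35 and -1.52 at 24 h, and -1.49, -1.80, -1.70 and -1.57 at 48 h. All 48 h arrays lay below all 0 h arrays, as they did for 4.69% of marrow genes. The change at 48 h was -0.28 (95% interval -0.48 to -0.09, exact permutation p 0.0286, limma adjusted p 0.156). The dimmer Smad7 probe pointed the other way, with a change of 0.33 (SE 0.33) at 48 h. Marrow Smad6 ran from -1.18 to -0.50 at 0 h, -1.45 to -0.74 at 24 h and -1.73 to -0.81 at 48 h, with changes of -0.21 and -0.46 (SE 0.22 for both) and overlapping groups. Its 24 h change was -0.077 without marrow 24 h replicate 2, -0.094 without 0 h replicate 1 and -0.32 without 0 h replicate 4.

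Marrow Id1, Id2 and Id4 moved by less than their spread at 24 h, with changes of -0.01, -0.05 and 0.05. At 48 h the changes were -0.29 (SE 0.17) for Id1, -0.30 (SE 0.14) for Id2 and -0.22 (SE 0.14) for Id4 (limma adjusted p 0.436, 0.310 and 0.488). That of Id1 was -0.19 without 0 h replicate 1, and that of Id4 was -0.14 without 0 h replicate 2. Id1 ran from 1.19 to 1.77 at 0 h, 1.24 to 1.73 at 24 h and 0.94 to 1.48 at 48 h, so its groups overlapped, as did those of Id2 (1.93 to 2.31 at 0 h and 1.66 to 2.11 at 48 h). Marrow Atoh8 was dim, between -4.62 and -3.44 on all arrays, with changes of -0.08 at 24 h and 0.08 at 48 h.

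Between 24 h and 48 h no member passed the threshold in either tissue. Limma called 0 of 19649 liver genes (0%) and 1 of 21399 marrow genes (0.00467%) for that step. At an unadjusted p under 0.05 there were 2 members in liver (Id3 at -0.45 and Bmper at -1.41), against 7.63% of all liver genes, and 0 in marrow, against 7.68%.

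The tissues were compared directly on all 24 arrays, over 22781 genes. At 0 h, 9 of 10 members differed between marrow and liver, where 80.2% of all genes tested did, so the share is near the background. Id2, Id3, Smad7 and Atoh8 were lower in marrow, by log2 differences of -2.23, -1.30, -1.24 and -3.88. Their limma adjusted p-values ran from 2.5e-12 for Atoh8 to 2.8e-05 for Id3. Smad9, also among the 9, was not above background in marrow. Its liver level was set against the faintest signals above background on the marrow arrays, or its own reading there where higher. On that measure it was 7.45-fold higher at 0 h, 6.29-fold at 24 h and 4.88-fold at 48 h. These folds are not strict bounds and depend on the processing. Over 36 alternatives the log2 difference of Smad9 at 0 h ran from -4.05 to -1.73, against -3.76 in the main fit. Id1, Id4, Bambi and Bmper were higher in marrow, by 0.63, 0.71, 0.64 and 1.14, with limma adjusted p-values of 0.0471, 0.0224, 0.0178 and 0.0188. The Id1 difference passed the threshold in 18 of 37 alternatives, Id4 in 34 of 37, Bambi in 36 of 37 and Bmper in 33 of 36. With normexp background correction Id4 differed by 0.21 and Bmper by 0.21 (limma adjusted p 0.244 and 0.363). Without marrow 0 h replicate 2 the calls of Id4, Bambi and Bmper were all lost, at differences of 0.63, 0.50 and 0.99. The Id4 call was also lost without liver 0 h replicate 4 (0.56), and that of Bmper without liver 0 h replicate 2 (0.88). Smad6 differed by 0.05 (95% interval -0.36 to 0.46) and was the member that did not pass.

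Whether a member changed differently in marrow and in liver was tested as an interaction. The fit of both tissues treated liver and marrow arrays as independent, although the labels do not say which share a mouse. Smad9 entered this test with marrow values at background. None of the 10 passed at 24 h or at 48 h, where limma called 83 genes (0.364%) and 94 genes (0.413%) of 22781. Bmper had the smallest p at 24 h, with a difference of -2.42 between the marrow and liver changes (SE 0.60, adjusted p 0.0821). It was under 0.05 in 4 of 36 alternatives. At an unadjusted p under 0.05 the members were 1 at 24 h (Bmper) and 1 at 48 h (Bambi, at -0.77), against 11.4% and 11% of all genes.

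The other genes of the pathway were taken from 4 lists. In liver none of their members passed the test at either time. Hamp, a direct target of the same SMADs, read 6.66, 7.14, 7.49 and 7.43 at 0 h, 6.39, 7.10, 6.94 and 6.20 at 24 h, and 6.60, 4.97, 5.39 and 4.74 at 48 h. All 48 h arrays lay below all 0 h arrays, as they did for 2.44% of liver genes. The change in Hamp at 48 h was -1.76 (SE 0.37, limma adjusted p 0.421). Bmp6 and Bmp2, the ligands that liver endothelium makes to drive hepcidin, had changes of -0.01 and -0.29 at 24 h and of -0.24 and 0.10 at 48 h. Hjv, the hemojuvelin co-receptor, and Tmprss6, the protease that cleaves it, had changes of -0.04 and -0.12 at 24 h and of 0.00 and 0.01 at 48 h. None of these 4 passed the test.

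Among 23 BMP ligands and receptors, 19 were tested in marrow, and 1 passed the test at 24 h and at 48 h. It was Bmp4, a ligand made by marrow stroma among other cells. Marrow Bmp4 read 0.29, 0.24, 0.27 and 0.55 at 0 h, -0.93, -1.20, -0.76 and -0.99 at 24 h, and -0.53, -1.17, -0.99 and -0.35 at 48 h. Every later array lay below every array at 0 h. Groups lay apart in the lower direction for 4.13% of marrow genes at 24 h and 4.69% at 48 h. Bmp4 fell by 1.31 at 24 h (SE 0.17, limma adjusted p 0.0048), and it was lower at 48 h too (adjusted p 0.0113), by -1.24 to -0.96 over the alternatives. It passed in all 26 alternatives at each time. The ranges of the stromal sum overlapped between times (370.1 to 441.3 at 0 h, 224.9 to 393.3 at 24 h and 168.1 to 383.4 at 48 h), and its part in the Bmp4 change was not tested. The list as a whole had 14 of 19 negative changes at 24 h and 17 of 19 at 48 h, with medians of -0.08 and -0.25. Of all marrow genes, 55.4% and 49.7% were negative, and 1.01% and 1.23% passed.

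Of 18 BMP antagonists and SMAD inhibitors outside the members, 16 were tested in marrow, 0 passed at 24 h and 1 at 48 h. Fstl1, a secreted follistatin-like protein, read 2.22, 2.69, 2.57 and 2.52 at 0 h and 2.03, 1.58, 1.67 and 1.85 at 48 h, all lower. Groups lay apart in this direction for 4.69% of marrow genes. Its lowest level, 1.58, was on 48 h replicate 2, the array with the lowest stromal sum (168.1). The part of stromal cells in the Fstl1 change was not tested. Fstl1 fell by 0.72 (limma adjusted p 0.0347), a call made in 15 of 26 alternatives, over which the change ran from -0.81 to -0.52. Among fits without 1 array it passed in 6 of 12, and it was lost without replicate 2, 3 or 4 of 0 h and without replicate 2, 3 or 4 of 48 h. The list had 15 of 16 negative changes at 24 h and 13 of 16 at 48 h, against 55.4% and 49.7% of all marrow genes, and 1.23% of all marrow genes passed at 48 h.

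Of 12 other SMAD targets, 10 were tested in marrow and 0 passed at either time. The last list held 5 helix-loop-helix factors (Tcf3, Tcf4, Tcf12, Tal1 and Lyl1), all measured in both tissues, and 1 passed in marrow at 48 h. Tal1, a master factor of blood and red cell formation, read 3.92, 3.94, 4.05 and 4.18 at 0 h and 4.74, 4.84, 4.55 and 4.48 at 48 h. It rose by 0.63 (limma adjusted p 0.0203), passing in 17 of 26 alternatives and in 7 of 12 when 1 array was left out (lost without replicate 1, 2 or 3 of 0 h and replicate 1 or 2 of 48 h), while all 6 erythroid markers had positive changes at 48 h that did not pass. Tcf3 and Tcf12, the E proteins that Id proteins bind most directly, had changes of -0.08 and -0.05 at 24 h and of 0.10 and -0.04 at 48 h, which did not pass.

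**Figure D3:**
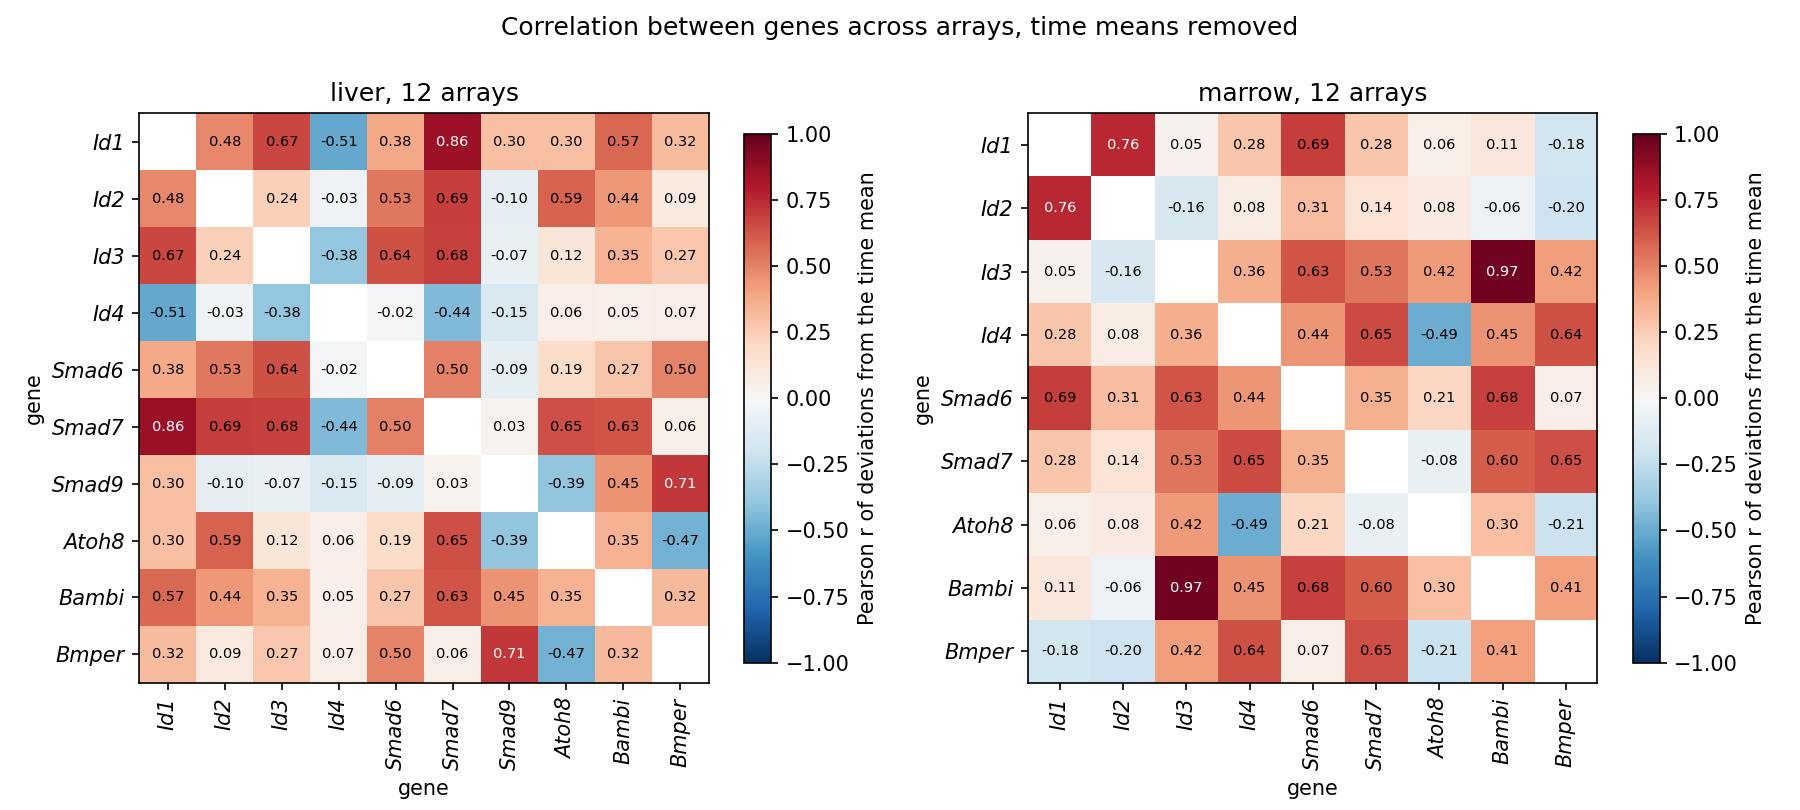
Pearson r between genes over the 12 arrays of a tissue after the mean of each time was removed (colour and number, from -1 to 1). The darkest square is Id3 with Bambi in marrow at 0.97, and the highest in liver is Id1 with Smad7 at 0.86.

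Which members moved together was asked on deviations from the mean of each time, so that a shared change over time does not count. Correlations were tested by exact permutation within times and adjusted over the pairs of a tissue. In marrow 1 of 36 pairs passed: Id3 with Bambi, at r = 0.966 (exact permutation p 0.000868, adjusted p 0.0313) and a Spearman rho of 0.867 (adjusted p 0.0443). Without the 2 arrays farthest in Id3, marrow 0 h replicate 2 and 48 h replicate 2, r was 0.940, and with slide means removed it was 0.968. Leaving out each array in turn gave r between 0.934 and 0.980 and an exact permutation adjusted p between 0.0417 and 0.125, which was under 0.05 in 3 of 12 cases: the call was lost without any single 24 h or 48 h array or without 0 h replicate 2. Without both marrow 24 h replicate 2 and 48 h replicate 2, r was 0.928 (adjusted p 0.25).

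**Figure D4:**
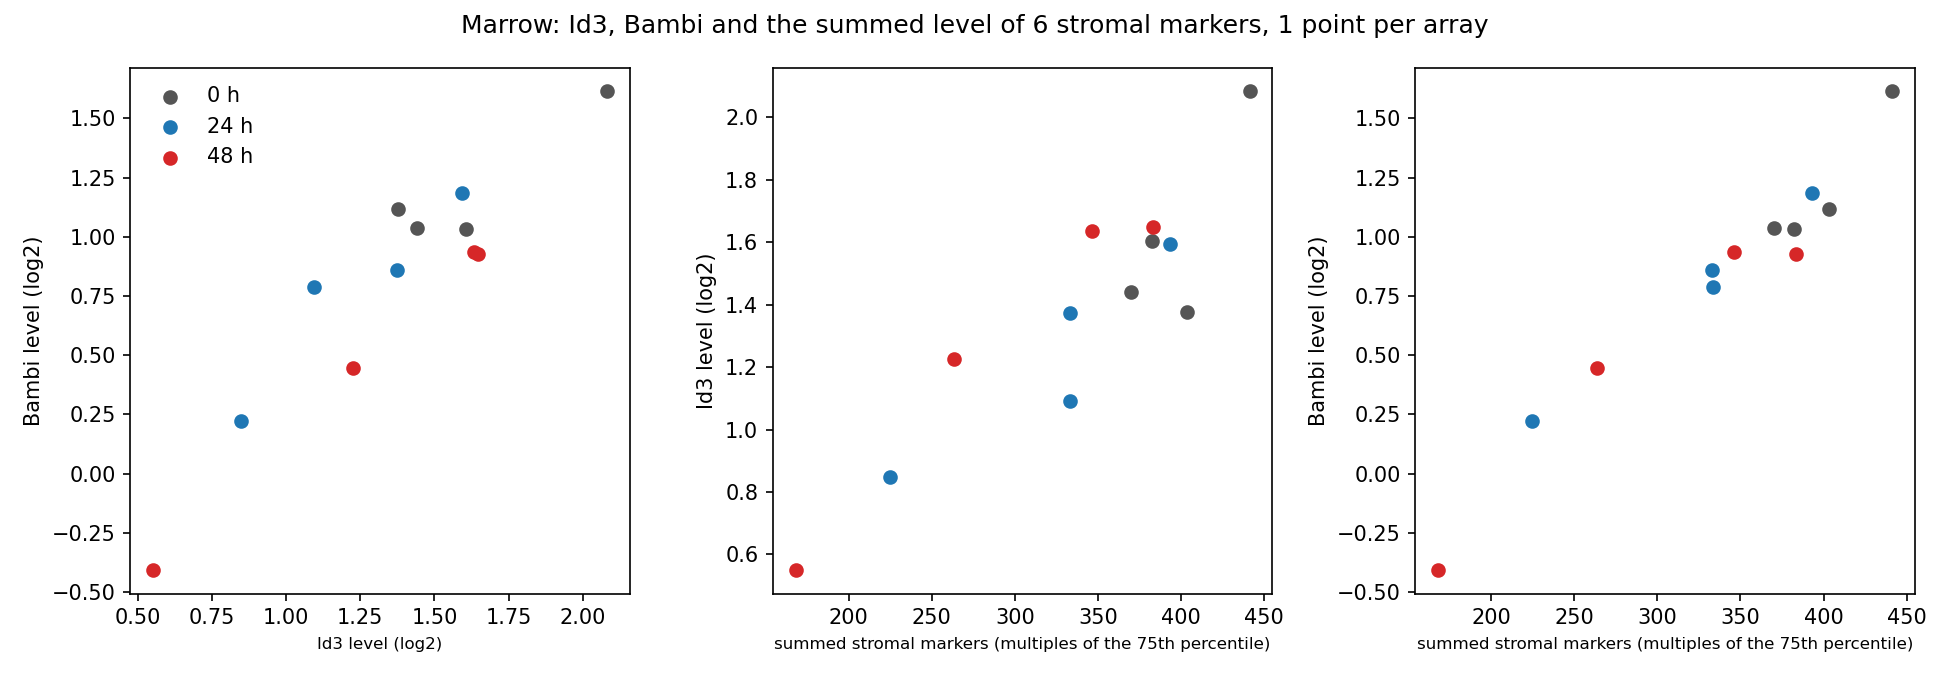
Bambi against Id3 (left) and each of them against the summed level of 6 marrow stromal markers (middle and right, multiples of the array's 75th percentile), 1 point per marrow array, coloured by time. The sum adds unlogged levels, so the brightest marker, Col1a1, weighs most. The array with the lowest stromal sum, 168.1, is the lowest in both genes, and the array with the highest, 441.3, is the highest in both. These arrays also had the highest (1036.2) and the lowest (749.2) summed erythroid markers, which are not plotted.

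The arrays at both ends of the stromal sum were also at the ends of Id3 and Bambi, as the plot of Id3 and Bambi against the stromal markers shows, while arrays in between were not in the same order: 0 h replicate 4, at 403.4 in the stromal sum, read 1.38 in Id3, and 48 h replicate 3, at 346.2, read 1.63. Summed erythroid markers had the same arrays at their ends, in the opposite order. They were highest on 48 h replicate 2 (1036.2) and lowest on 0 h replicate 2 (749.2). Summed megakaryocyte markers were also highest on 48 h replicate 2 (318.4), but lowest on 48 h replicate 1 (179.5). In marrow the genes most like Id3 over the 12 arrays were Sp7, the osterix factor of bone-forming cells, and Plcd1 (r of 0.988 and 0.983 with time left in). Those most like Bambi were Col11a1, a cartilage and bone collagen chain, and Cpz (0.990 and 0.985). Sp7 read -0.04 and Col11a1 0.88 on marrow 48 h replicate 2, the lowest of all marrow arrays, and 1.68 and 3.97 on 0 h replicate 2, the highest. These likenesses are ranks among 19517 genes with no test. The stromal and erythroid sums differed between these arrays, and their part in the likenesses was not tested.

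Other marrow pairs did not pass on Pearson r. Id1 with Id2 gave r = 0.756 (adjusted p 0.181) but passed on Spearman's rho (0.790, adjusted p 0.0443). Id1 with Smad6 gave 0.694 (exact permutation adjusted p 0.265), and with slide means removed this pair passed, at r = 0.833 (adjusted p 0.00651). Id4 with Bmper gave 0.635, and with replicate means removed this pair passed, at r = 0.805 (exact permutation adjusted p 0.0234). Smad7 with Bmper also passed with replicate means removed, at r = 0.940 (exact permutation adjusted p 0.0221). The marrow genes most like the others were Oscp1 and Lta4h for Id1 (0.971 and 0.967), Ugp2 and Pcyox1 for Id2 (0.959 and 0.944), Plekhm1 and Snrk for Id4 (0.959 and 0.934), and Gadd45b and Olfml2b for Smad6 (0.951 and 0.930). For Smad7 they were Dab2ip and Galnt3 (0.902 and 0.891), for Atoh8 Odf4 and Plxnb3 (0.838 and 0.832), and for Bmper Map1b and Cr2 (0.939 and 0.930).

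In liver 0 of 45 pairs passed. The highest r was that of Id1 with Smad7, 0.859 (rho 0.755, exact permutation p 0.00875, adjusted p 0.184), and it was 0.682 without the 2 arrays farthest in Id1. Smad9 with Bmper had the smallest p (r = 0.705, rho 0.657, exact permutation p 0.00297, adjusted p 0.133). Smad7 also gave 0.694 with Id2, 0.682 with Id3, 0.647 with Atoh8 and 0.632 with Bambi, all with an unadjusted exact permutation p under 0.05. Id3 with Bambi, the marrow pair, gave 0.35 in liver. With time left in, 2 liver pairs passed, Id1 with Smad7 and Id3 with Smad7.

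No member passed for correlation with Hamp over the 12 liver arrays, with time means removed. The highest were Smad7 (r = 0.657, rho 0.594, exact permutation p 0.0831), Id3 (r = 0.563, rho 0.531, p 0.0457) and Id1 (r = 0.525, rho 0.343, p 0.191), with adjusted p-values of 0.340, 0.340 and 0.381. With time left in, Id3 (0.850) and Smad7 (0.791) passed, where a shared change from 0 h to 48 h counts toward r. The liver genes most like the members were Coq7 and Cxcl9 for Id3 (0.872 and 0.855), Ethe1 and Grk5 for Smad7 (0.874 and 0.869), Dbt and Sulf2 for Id1 (0.906 and 0.840), and Rnaseh1 and Repin1 for Id2 (0.890 and 0.871). For Id4 they were Ggnbp1 and Pogk (0.845 and 0.813), for Smad6 Ntrk2 and NEAT1 (0.923 and 0.882), and for Smad9 Ttc23 and Kmt2a (0.884 and 0.874). For Bambi they were Rgmb and Foxp1 (0.885 and 0.867). These are likewise ranks, among 17661 genes, with no test.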

How the data were processed

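Spot intensity as deposited was, per the file headers and the submitters' processing notes, produced by Agilent Feature Extraction 10.10.1.1 with background subtraction and without scaling across arrays. A second table of log2 values that the authors deposited, filtered per tissue, served as an alternative; how it was made is not given in the sources used here. From each processed intensity, log2 was taken and the 75th percentile of that array's non-control spots removed. Outlier spots were left out and 0 spots were saturated. Probes stayed in if every array of some group in that tissue read them well above background, and a gene was represented by its kept probe with the highest mean. Limma 3.58.1 in R 4.3.3 (lmFit, eBayes) fitted the 3 times of a tissue on 12 arrays, and both tissues on 24 arrays for the interaction. Slide and scan time coincide, with 3 slides of 8 arrays. The number of arrays limits the precision. Groups and replicate numbers came from the sample titles. The scripts were tested on simulated data. Same-numbered arrays of a tissue at different times correlated between -0.27 and 0.17. This does not settle whether a number marks a shared litter, day or batch beyond the partly shared slide, and it does not compare liver with marrow.

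The genes named are all 10 members with every probe, 5 liver and 2 marrow pathway genes (Hamp, Bmp6, Bmp2, Tmprss6, Hjv; Tcf3, Tcf12), any gene of the 4 pathway lists past the threshold, and the 2 genes most like each member in each tissue; those most like Atoh8 in liver are not reported here. The members and lists were chosen with earlier results of these data known. Alternatives covered scaling, background correction, the authors' values, the filter, probes per gene, slide, replicate number, variance model, array weights, the arrays fitted and leaving out each array. A further one, without marrow 24 h replicate 2 and 48 h replicate 2 together, was chosen after seeing the data.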

Additional observations from a re-analysis of the deposited data

Results flagged for a closer look

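Of 57 groups of 4 arrays, 1 for each measured member, tissue and time, 5 held an array whose distance to the nearest of the others took up most of the group's range, more than Dixon's 95% critical value allows. Chance flags about 1 group in 20, or 2.85 of 57. Liver Id2 on 48 h replicate 3 was low at 3.53, with the next array at 4.24. Liver Id4 on 0 h replicate 4 was low at -3.29, with the next at -2.73. Liver Atoh8 on 24 h replicate 1 was low at -1.15, with the next at -0.46. Marrow Smad7 on 0 h replicate 3 was high at -1.26, with the next at -1.38, a gap that is large only beside the narrow range of that group. Marrow Bambi on 0 h replicate 2 was high at 1.61, with the next at 1.12. Of the marrow arrays, that array also had the highest sum of stromal markers, 441.3, and the lowest of erythroid markers, 749.2. No member's change differed between the tissues past the threshold.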

How the results depend on the processing

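The count of members past the threshold kept its side in most settings. It was 1 (Bmper) in place of 0 for marrow at 24 h under normexp background correction, the authors' deposited values, trend and robust variance, array weights and only the arrays of the 2 groups, and 0 to 1 over the leave-one-out fits. It was likewise 1 for the interaction at 24 h under normexp and the authors' deposited values, and 0 to 1 leaving out 1 array. The authors' values were not used for the tissue difference at 0 h. They were filtered per tissue, and how they were scaled is not given in the sources used here. Correlated pairs numbered 1 in liver with replicate means removed (replicate block) and 2 with time left in, and 0 to 1 leaving out 1 array. In marrow they numbered 2 with slide means removed, 3 with the replicate block, 5 with time left in, 0 without both arrays named above, and 0 to 1 leaving out 1 array. For Hamp they numbered 2 with the replicate block and 2 with time left in. The causes were not tested.

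Same-numbered arrays partly share a slide. In both tissues, all replicate 1 arrays lay on slide 1 and all replicate 4 arrays on slide 3. Replicates 2 and 3 were each spread over neighbouring slides. The replicate block and the slide block therefore overlap and cannot be fully told apart. Whether same-numbered arrays share anything else is not known. Among the arrays of the other times, 4 of 12 liver and 6 of 12 marrow arrays correlated best with an array of their own number. Some such matches arise without any pairing, and these counts were not tested. With the replicate block, calls over all genes were 126 in place of 217 for marrow at 24 h and 100 in place of 264 at 48 h, and 0 members were called in the 6 contrasts over time. Over all settings but leaving out 1 array, these calls ran from 69 (no filter) to 439 (array weights) at 24 h and from 100 to 812 (array weights) at 48 h, and leaving out 1 array gave 70 to 221 and 98 to 391. For the interaction they ran from 22 to 164 at 24 h and 18 to 198 at 48 h, and leaving out 1 array gave 24 to 178 and 29 to 110. For marrow from 24 h to 48 h they were 0 to 2 in place of 1, and in liver, leaving out 1 array gave up to 2, 9 and 1 calls in place of 0.

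Small changes turned sign under some settings. With array weights, the change was -0.11 for Atoh8 in marrow at 48 h, -0.085 for Id3 in marrow from 24 h to 48 h, 0.19 for Id3 in the interaction at 24 h. Without both marrow 24 h replicate 2 and marrow 48 h replicate 2, the change was 0.043 for Id1 in marrow at 24 h. With the mean of all kept probes, the change was 0.061 for Id2 in liver at 24 h, 0.099 for Smad7 in liver from 24 h to 48 h, 0.015 for Smad7 in marrow at 24 h, 0.024 for Smad7 in marrow at 48 h, 0.0091 for Smad7 in marrow from 24 h to 48 h, -0.15 for Id2 in the interaction at 24 h. With the median of the array subtracted, the change was 0.052 for Id1 in marrow at 24 h, 0.0075 for Id2 in marrow at 24 h, -0.024 for Id3 in marrow from 24 h to 48 h. With normexp background correction, the change was 0.0088 for Id1 in marrow at 24 h, -0.012 for Smad6 in the tissue difference at 0 h. With the slide as a block, the change was 0.062 for Atoh8 in marrow at 24 h. Leaving out 1 array, ranges that crossed 0 were -0.087 to 0.18 for Atoh8 in liver from 24 h to 48 h, -0.20 to 0.099 for Atoh8 in marrow at 24 h, -0.082 to 0.26 for Atoh8 in marrow at 48 h, -0.016 to 0.33 for Atoh8 in marrow from 24 h to 48 h, -0.0060 to 0.10 for Bambi in liver at 48 h, -0.47 to 0.0060 for Bambi in marrow from 24 h to 48 h. Others were -0.38 to 0.11 for Bmper in liver at 48 h, -0.10 to 0.094 for Id1 in marrow at 24 h, -0.15 to 0.12 for Id2 in liver from 24 h to 48 h, -0.14 to 0.029 for Id2 in marrow at 24 h, -0.20 to 0.073 for Id2 in the interaction at 48 h, -0.091 to 0.27 for Id3 in marrow from 24 h to 48 h. Others were -0.20 to 0.082 for Id3 in the interaction at 24 h, -0.077 to 0.15 for Id4 in marrow at 24 h, -0.044 to 0.14 for Smad6 in liver at 48 h, -0.063 to 0.16 for Smad6 in the tissue difference at 0 h.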
